A study of Drosophila melanogaster with 12 samples.

Results

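Adding cisplatin to TiO2 was studied by setting 3 libraries of flies given both substances against 3 libraries of flies given TiO2 nanoparticles alone, which is 6 of the 12 RNA-seq libraries of the series. The flies were Drosophila melanogaster females of the Oregon strain, taken as whole bodies after 3 days of feeding at 25 °C with 12 hours of light; their medium held yeast and green dye. The combination group received cisplatin and TiO2, and the TiO2 group received TiO2 and no cisplatin; the nanoparticles are therefore present on both sides of the comparison. The other 6 libraries came from flies given cisplatin alone and from untreated controls, and were used for the shared estimate of the spread and for the same cisplatin difference in the absence of TiO2. Each substance is labelled as 50 µg/ml in one place and as 50 mg/ml in another, and the number of flies in a library and their age are not given in the sources used here. Since nothing in the labels says that the libraries of a group came from separate cultures of flies, p-values measure the spread between these libraries, which may be technical.

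Cisplatin is a platinum drug that binds DNA and forms crosslinks between bases, and in dividing cells its lesions are met by checkpoint signalling, excision and recombination repair, and cell death. Platinum also binds thiols, so that metallothioneins and glutathione take part in its handling. TiO2 nanoparticles are a mineral pigment that reaches the gut of a feeding fly first. A whole female fly is a mixture of tissues, with a large ovary beside gut, fat body, muscle and the nervous system, so that a transcript level in it reflects both the amount of each tissue and the expression in it. Fewer cells of a type and less RNA per cell cannot be told apart in such samples.

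Library totals lay between 35023107 and 40301366 counts in the combination and between 26763042 and 34006699 counts in TiO2. Against the label of female flies, combination replicate 2 held transcripts of male tissues. Summed testis and sperm genes had 3247 CPM (counts per 1000000 counts of the library) there, against 0.897 and 6.72 CPM in combination replicates 1 and 3 and between 0.748 and 1.03 CPM in TiO2. The male accessory gland gene Acp36DE had 11826 counts in combination replicate 2, 0 and 8 counts in the other combination libraries, and 0, 2 and 0 counts in the TiO2 libraries. The Y chromosome gene kl-5, a dynein heavy chain of the sperm tail, had 326 counts in combination replicate 2 and 0 counts in the other 5 libraries. A count of 0 in these libraries leaves room for 3 counts, or 0.0744 to 0.112 CPM depending on the library, and covers counting error only. This library also had 36260 CPM of summed muscle markers, against 2838 and 12390 CPM in the other combination libraries and 4467 to 9316 CPM in TiO2. Its mitochondrial share was 12.4% of the counts, against 7.51% and 9.45% in the other combination libraries and 6.81% to 7.68% in TiO2. On log2 CPM across genes it correlated at 0.810 and 0.872 with the other combination libraries, which correlated with each other at 0.968 and with the TiO2 libraries at 0.970 to 0.988. The female markers of ovary and yolk were present in all 6 libraries. They had 21820, 11650 and 13460 CPM in combination replicates 1 to 3, and 8108, 29610 and 30170 CPM in TiO2 replicates 1 to 3, so that TiO2 replicate 1 stood apart as low. Each result below names whether combination replicate 2 was in the fit.

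**Figure D1:**
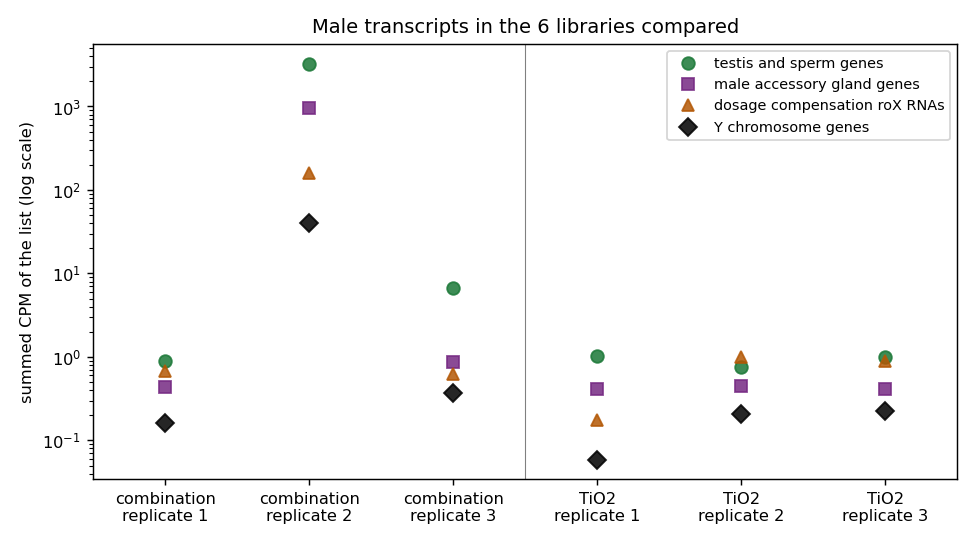
Summed CPM of 4 lists of male transcripts (log scale) in the 3 combination libraries and the 3 TiO2 libraries; each point is 1 list in 1 library. Combination replicate 2 stands far above the other 5 libraries in every list, with 3247 CPM of testis and sperm genes, and combination replicate 3 has 6.72 CPM of these.

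No gene differed between the combination and TiO2 beyond the spread between replicates in edgeR's quasi-likelihood test with Benjamini-Hochberg adjustment. Of 11060 genes tested, 0 (0%) passed an adjusted p of 0.05 with all libraries, where the smallest adjusted p was 0.617. Without combination replicate 2 there were again 0 (0%), with a smallest adjusted p of 0.9999. DESeq2 called 3 genes with all libraries (0.0277% of the 10849 with an adjusted p), all higher in the combination: Nmdmc, CG16758 and CG42764. Without combination replicate 2 it called 1 gene (0.00905%), Nmdmc. limma with voom sample weights called 348 genes with all libraries and 0 without combination replicate 2.

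At an unadjusted p under 0.05, 728 genes (6.58%) were higher and 22 genes (0.199%) were lower in the combination with all libraries. In 688 of these 728, combination replicate 2 was the highest of the 3 combination libraries, and in 337 it lay over 4 times above both others. Without it, 100 genes (0.904%) were higher and 40 genes (0.362%) were lower at this p. Together they were 140 genes (1.27%), a smaller share than the 0.05 that this threshold passes when no gene differs. Of those, 81 of the 100 higher and 11 of the 40 lower genes were also among the 728 and 22. When TiO2 replicate 1 was left out as well, 83 genes (0.75%) were higher and 132 genes (1.19%) were lower. The CPM ranges of the groups, with all libraries, did not overlap in 468 genes (4.23%) that were higher and in 258 genes (2.33%) that were lower in the combination. Without combination replicate 2 the ranges did not overlap in 627 higher and 484 lower genes of the 11060 tested. Ranges that do not overlap are thus common here and by themselves do not set a gene apart. These shares are the background against which the counts below are read, and none of the genes below passed the adjusted threshold in edgeR.

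Nmdmc, the gene with the smallest p-value of those DESeq2 called, belongs to folate metabolism. Folate coenzymes carry single carbon units, taken mainly from serine and glycine, to the synthesis of purines and thymidylate and to the methionine cycle. Nmdmc, a mitochondrial methylenetetrahydrofolate dehydrogenase and cyclohydrolase, had 128, 150 and 111 CPM in combination replicates 1 to 3 and 53.5, 57.8 and 59.3 CPM in TiO2 replicates 1 to 3. All 3 combination libraries lay above all 3 TiO2 libraries, with replicate 2 the highest. The means were 130 ± 19.6 CPM in the combination and 56.8 ± 3.01 CPM in TiO2 (SD, n = 3 each). The log2 fold change came to 1.19 ± 0.19 (standard error, as for all log2 fold changes below), and to 1.07 ± 0.19 without combination replicate 2. In DESeq2 Nmdmc rose with a Benjamini-Hochberg adjusted p of 6.02e-05, and of 0.00463 without that library; in edgeR the adjusted p was 0.617, and it ran up to 1.00 over the alternatives. Nmdmc (FBgn0010222) lies at chromosome 3R, 9042508 to 9050555, minus strand, in coordinates of the deposited table that match assembly BDGP6.54. Its exons overlap exons of Mst85C on the opposite strand, and whether the counting used strand is not given in the sources used here.

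Sardh, the sarcosine dehydrogenase that hands a carbon unit to folate, had 37.1, 36.01 and 46.0 CPM in the combination and 20.3, 29.1 and 19.8 CPM in TiO2. Shmt, the serine hydroxymethyltransferase that loads folate from serine, had 368, 467 and 411 CPM in the combination and 251, 309 and 315 CPM in TiO2. CG3999, a subunit of the glycine cleavage system, had 85.1, 117 and 95.4 CPM in the combination and 45.0, 58.4 and 76.4 CPM in TiO2. For each of these 3 genes the groups did not overlap. The log2 fold changes without combination replicate 2 were 0.85 ± 0.29 for Sardh, 0.42 ± 0.16 for Shmt and 0.59 ± 0.30 for CG3999, and with it 0.78 for Sardh, 0.51 for Shmt and 0.73 for CG3999.

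The cytosolic folate enzyme pug, which carries out the same dehydrogenase and cyclohydrolase steps outside the mitochondrion, behaved differently in the library with male transcripts. It had 578, 222 and 554 CPM in combination replicates 1 to 3 and 354, 400 and 357 CPM in TiO2, so that replicates 1 and 3 lay above and replicate 2 lay below all TiO2 libraries. Gnmt, the glycine N-methyltransferase that consumes methyl groups, had 66.0, 66.9 and 15.6 CPM in the combination and 7.01, 33.1 and 8.45 CPM in TiO2. Its groups overlapped, and its difference was -0.05 (log2) when both combination replicates 1 and 2 were left out.

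Of the folate and one-carbon list, 15 genes were matched by symbol to the deposited counts, and 15 of 15 were tested. Fpgs, Gcsh, CG10623 and CG12264 were sought under these symbols and not matched. At an unadjusted p under 0.05, 6 were higher and 0 lower with all libraries, and 3 higher and 0 lower without combination replicate 2; none passed the adjusted threshold in edgeR. The list had a median log2 fold change of 0.51, or 0.23 without combination replicate 2, where the medians of all genes were 0.02 and 0.00. In 5 of the 15 genes all combination libraries lay above all TiO2 libraries. Among the genes that serve the methionine cycle and transsulfuration, Sam-S, Cbs, Ahcy and AhcyL1 lay between -0.20 and 0.14 of their TiO2 means (log2) in combination replicates 1 and 3. CG10621 of the same list did not stay near its TiO2 mean. It lay at 0.33, 1.48 and 0.70 of that mean (log2) in combination replicates 1 to 3. In TiO2 replicates 1 to 3 it lay at -0.09, 0.20 and -0.11, without overlap.

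Purine synthesis draws on folate units to build its ring, and the salvage enzymes recover bases and nucleosides. CG16758, a purine nucleoside phosphorylase by its homology to the mammalian enzyme, had 245, 270 and 242 CPM in the combination and 111, 105 and 156 CPM in TiO2. The groups did not overlap, and the combination libraries were close to one another, with means of 252 ± 15.3 CPM in the combination and 124 ± 28.2 CPM in TiO2 (SD, n = 3 each). The log2 fold change came to 1.02 ± 0.21, and to 0.97 ± 0.23 when combination replicate 2 was left out. CG16758 rose in DESeq2 with a Benjamini-Hochberg adjusted p of 0.0119 with all libraries, and was at 0.192 without combination replicate 2; over the other alternatives the adjusted p ran from 0.0107 to 1.00. CG16758 (FBgn0035348) lies at chromosome 3L, 2499372 to 2503606, minus strand, and shares no exon with another gene.

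Among the genes of the synthesis pathway itself, Prat2, an amidophosphoribosyltransferase of the first step, had 185, 183 and 233 CPM in the combination and 95.8, 71.7 and 164 CPM in TiO2. Paics, which acts in the middle of the pathway, had 332, 402 and 353 CPM in the combination and 205, 268 and 270 CPM in TiO2. CG11089, the bifunctional enzyme of the last steps to inosine monophosphate, had 401, 389 and 342 CPM in the combination and 213, 308 and 245 CPM in TiO2. In these 3 genes all combination libraries lay above all TiO2 libraries, and leaving out replicate 2 gave log2 fold changes of 0.92 for Prat2, 0.47 for Paics and 0.54 for CG11089, where the fit of every library gave 0.86 for Prat2, 0.55 for Paics and 0.56 for CG11089. CG11089 shares exon sequence with CG31381 on its own strand, which leaves its own count uncertain.

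A further 3 genes of this list were high in combination replicates 1 and 3 and not in replicate 2. Gart, a trifunctional enzyme that takes up folate units, had 434, 215 and 385 CPM in the combination and 243, 283 and 331 CPM in TiO2. Pfas, the formylglycinamidine synthase, had 496, 249 and 311 CPM in the combination and 259, 252 and 264 CPM in TiO2. Adgf-D, a secreted adenosine deaminase, had 43.2, 19.6 and 37.7 CPM in the combination and 20.2, 18.6 and 27.3 CPM in TiO2. The groups overlapped in each, and once combination replicate 2 was left out they did not; the log2 fold changes were then 0.52 for Gart (0.27 with it), 0.64 for Pfas (0.45) and 0.87 for Adgf-D (0.60). The value of Pfas was 0.27 when combination replicate 1 was left out too, and in the fit of every library leaving out that replicate gave 0.12 for Pfas, 0.07 for Gart and 0.38 for Adgf-D; without TiO2 replicate 1 Gart was at 0.17.

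Of the 20 genes of the purine list that were matched by symbol, 18 were tested. At an unadjusted p under 0.05, 5 were higher in the fit of every library and 7 once combination replicate 2 was left out, and 0 were lower in either case; 0 passed the adjusted threshold in edgeR. The median log2 fold change was 0.33 with every library and 0.28 without that library. Without TiO2 replicate 1 as well, the median was 0.16 and 2 genes, in place of 7, were higher at that p. In the folate list the same omission gave 2 genes higher at that p, in place of 3. Prat, the other amidophosphoribosyltransferase gene, ras and bur, which make guanine nucleotides, and Adk2 lay between -0.21 and 0.05 of their TiO2 means (log2) in combination replicates 1 and 3. Synthesis of deoxynucleotides and pyrimidines had no such difference, with a median of 0.03 over 11 genes without combination replicate 2 and 0 of them at an unadjusted p under 0.05.

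**Figure D2:**
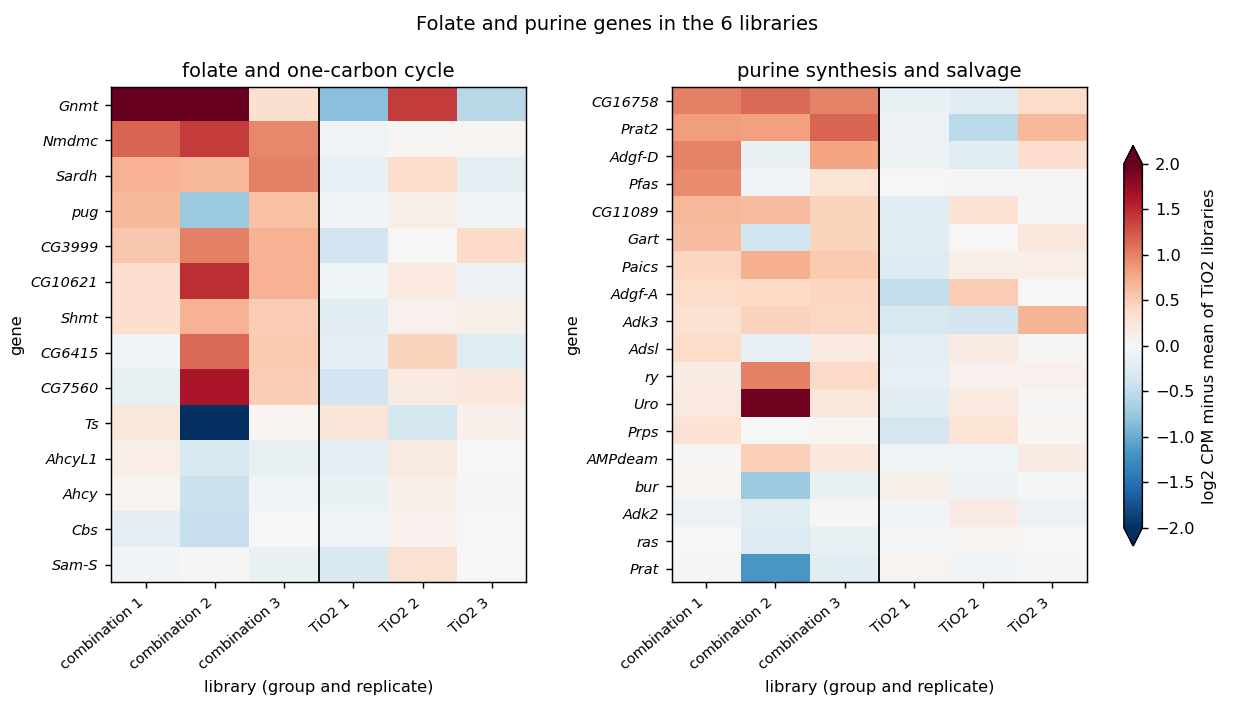
Log2 CPM of 14 of the 15 tested genes of the folate and one-carbon list (left) and of each tested gene of the purine list (right) in the 6 libraries, minus the mean of the 3 TiO2 libraries; red is above and blue below that mean, and colours saturate at 2. Nmdmc and CG16758 are above it in all 3 combination libraries (by 0.96 to 1.40 and by 0.99 to 1.14), whereas pug, Gart and Ts are below it, among the combination libraries, only in replicate 2.

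Tdh, Hn and hgo, which were named by their p-values and belong to no list used here, encode enzymes of amino acid breakdown. Tdh, a threonine dehydrogenase, had 24.4, 17.0 and 21.0 CPM in the combination and 5.09, 11.7 and 5.21 CPM in TiO2. All combination libraries lay above all TiO2 libraries, and the log2 fold change was 1.50 ± 0.41 (1.63 ± 0.44 without combination replicate 2). Hn, the phenylalanine hydroxylase that makes tyrosine, had 180, 112 and 170 CPM in the combination and 75.8, 104 and 132 CPM in TiO2. The homogentisate dioxygenase hgo, which acts later in tyrosine breakdown, had 20.4, 14.8 and 24.0 CPM in the combination and 11.4, 11.6 and 17.1 CPM in TiO2. In both Hn and hgo the groups overlapped only through combination replicate 2, and the log2 fold changes without it were 0.75 ± 0.20 for Hn (0.57 with it) and 0.73 ± 0.21 for hgo (0.56).

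The phosphoserine phosphatase aay, the last step of serine synthesis, had 191, 341 and 200 CPM in the combination and 138, 125 and 143 CPM in TiO2. Its groups did not overlap, the library with male transcripts was the highest, and the log2 fold change was 0.85 with all libraries and 0.53 without it. The translation inhibitor Thor, a target of the stress factors ATF4 and foxo, had 175, 192 and 118 CPM in the combination and 105, 116 and 123 CPM in TiO2, where the groups overlapped through combination replicate 3. Over the 19 genes of the list of ATF4, unfolded protein and amino acid stress, 3 were higher in the fit of every library and 1 (aay) once combination replicate 2 was left out, at an unadjusted p under 0.05, with 0 lower, and the medians were 0.09 and 0.05.

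Several other genes named by their p-values were also higher in the combination. CG7763 had 11.9, 7.65 and 5.17 CPM in the combination and 1.94, 2.92 and 2.01 CPM in TiO2, a log2 fold change of 1.85 ± 0.46 (1.90 ± 0.49 without combination replicate 2, and 1.17 without replicate 1 as well). Mp, a collagen of the basement membrane, had 36.7, 89.4 and 37.8 CPM in the combination and 24.1, 16.9 and 17.6 CPM in TiO2; its log2 fold change was 1.48 with all libraries and 0.93 without replicate 2. The groups did not overlap in either gene. Exons of Mp overlap an antisense RNA.

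The leucine-rich repeat gene atk had 17.5, 2.85 and 7.74 CPM in the combination and 0.848, 4.30 and 0.894 CPM in TiO2. It shares exon sequence on the same strand with CG42764, which had 0.730, 5.98 and 0.383 CPM in the combination and 0.0547, 0.123 and 0.149 CPM in TiO2, so that reads of the pair may be assigned to either. CG42764, at chromosome 3L, 20464714 to 20466041, passed in DESeq2 with all libraries (Benjamini-Hochberg adjusted p of 0.0431) and was at 1.00 without combination replicate 2; its edgeR adjusted p was 0.617, with 0.0104 to 1.00 over the alternatives. The glutathione S-transferase-containing zinc finger gene gfzf had 118, 60.1 and 113 CPM in the combination and 84.8, 84.4 and 78.2 CPM in TiO2. In gfzf, replicates 1 and 3 lay above and replicate 2 below all TiO2 libraries, as in pug. CG18858 showed 15.4, 5.37 and 9.27 CPM in the combination and 4.90, 6.95 and 6.00 CPM in TiO2.

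CatB, a second catalase gene, was named by its p with all libraries. It had 1.19, 75.3 and 0.599 CPM in the combination and 0.328, 0.246 and 0.335 CPM in TiO2, so that a log2 fold change of 6.39 with all libraries was 1.55 without that library and 0.98 without combination replicate 1 as well. The high value was that of combination replicate 2 alone.

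**Figure D3:**
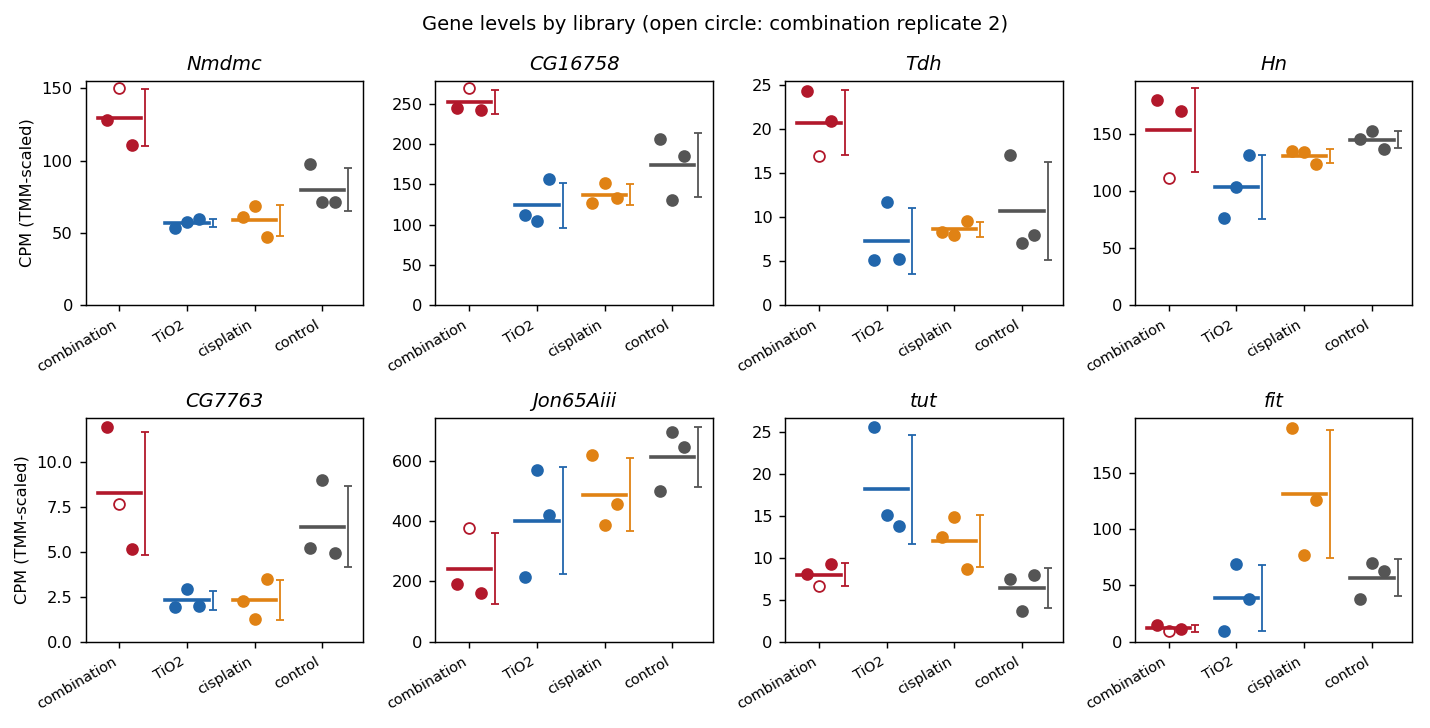
CPM of 8 named genes in each library, by group (combination, TiO2, cisplatin, control); horizontal bars are means, vertical bars are SDs (n = 3), and the open circle is combination replicate 2. Nmdmc lies at 111 to 150 CPM in the combination, above the 53.5 to 59.3 CPM of TiO2, whereas fit lies at 9.22 to 15.3 CPM in the combination and at 9.91 to 69.1 CPM in TiO2.

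Of the 8 lower genes named by their p without combination replicate 2, 4 encode digestive enzymes. The midgut of the fly secretes serine proteases, lipases and lysozymes, which are encoded by large families of near copies, so that reads of one member may be assigned to another. The serine protease gene Jon65Aiii had 191, 377 and 161 CPM in the combination and 215, 569 and 422 CPM in TiO2. Its neighbour Jon65Aii had 1.22, 42.9 and 7.62 CPM in the combination and 15.2, 36.6 and 19.6 CPM in TiO2. CG6295, a lipase by homology, had 68.0, 134 and 96.0 CPM in the combination and 103, 153 and 176 CPM in TiO2. In all 3 genes, combination replicates 1 and 3 lay below every TiO2 library; replicate 2 lay within the TiO2 range for Jon65Aiii and CG6295 and above it for Jon65Aii. The log2 fold changes without replicate 2 were -1.20 ± 0.37 for Jon65Aiii, -2.42 ± 0.71 for Jon65Aii and -0.81 ± 0.26 for CG6295, and with it -0.73 for Jon65Aiii, -0.46 for Jon65Aii and -0.54 for CG6295. The value of Jon65Aii rested on single libraries: without replicate 2 it was -4.28 when combination replicate 3 was left out too, and in the fit of every library it ran from -2.42 to 0.09 (without combination replicate 1) as 1 library was left out.

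The lysozymes followed single libraries more than groups. LysD had 5.24, 175 and 5.08 CPM in the combination and 2.30, 174 and 276 CPM in TiO2. LysB had 1.11, 32.7 and 0.695 CPM in the combination and 0.219, 63.8 and 75.3 CPM in TiO2. In LysB, LysC, LysD and LysE alike, combination replicates 1 and 3 and TiO2 replicate 1 were low and the other 3 libraries were high, so that the groups overlapped with and without combination replicate 2. LysC and LysD also overlap each other on opposite strands.

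Over the 59 digestive enzyme genes, 56 were tested. At an unadjusted p under 0.05, 0 were higher and 2 lower with all libraries, and 0 higher and 7 lower without combination replicate 2; 4 of these 7 are the lysozymes. The median log2 fold change was -0.37 with all libraries and -0.36 without that library, and 47 of 56 genes were lower without it. Without TiO2 replicate 1 as well, the median was -0.62, with 10 genes lower at an unadjusted p under 0.05. Their summed level was 6254, 4795 and 6057 CPM in the combination and 5055, 8287 and 8625 CPM in TiO2, where TiO2 replicate 1 again was low. None passed the adjusted threshold in edgeR.

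Of the remaining lower genes, tut, an RNA-binding gene known from the male germ line, had 8.05, 6.61 and 9.32 CPM in the combination and 25.6, 15.1 and 13.8 CPM in TiO2. Its groups did not overlap, and the log2 fold change was -1.19 ± 0.36 (-1.07 ± 0.40 without combination replicate 2). Dcps, the scavenger enzyme that degrades the cap left after messenger decay, had 36.4, 19.2 and 23.2 CPM in the combination and 47.1, 43.3 and 48.7 CPM in TiO2. The pseudouridine synthase gene Pus10 had 22.5, 15.8 and 18.7 CPM in the combination and 31.1, 32.5 and 38.7 CPM in TiO2. In Dcps and Pus10 too, every combination library lay below every TiO2 library, with log2 fold changes of -0.82 ± 0.28 for Dcps and -0.84 ± 0.28 for Pus10, or -0.64 and -0.73 without combination replicate 2. Dcps was then at -0.35 when combination replicate 3 was left out too.

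The satiety peptide gene fit, which is expressed in the female fat body after feeding, had 15.3, 9.22 and 11.7 CPM in the combination and 9.91, 69.1 and 37.6 CPM in TiO2. TiO2 replicate 1 lay among the combination libraries and the other TiO2 libraries above them; exons of fit overlap an antisense RNA gene annotated on its own strand. CG8032 had 44.4, 27.5 and 40.9 CPM in the combination and 61.2, 55.6 and 56.7 CPM in TiO2, without overlap. CG1092 had 6.19, 22.9 and 6.99 CPM in the combination and 12.1, 16.4 and 13.5 CPM in TiO2, where replicate 2 lay above and the others below all TiO2 libraries. CG4842 had 10.1, 12.8 and 8.72 CPM in the combination and 24.6, 10.5 and 16.3 CPM in TiO2, and Sp7, a protease of the melanization cascade, had 19.9, 28.6 and 18.6 CPM in the combination and 32.7, 23.3 and 28.2 CPM in TiO2.

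Genes of the response to DNA damage did not differ detectably between the combination and TiO2. With all libraries, 44 of 44 tested genes of checkpoint and repair were lower, with a median log2 fold change of -0.38, and in all 44 combination replicate 2 was the lowest of the 3 combination libraries. Without it, 26 were higher and 18 lower, the median was 0.03, and 0 were at an unadjusted p under 0.05 in either direction. The tumour suppressor p53, which drives the fly's transcriptional answer to DNA breaks, had 18.1, 8.31 and 13.9 CPM in the combination and 15.4, 16.4 and 14.2 CPM in TiO2, a log2 fold change of 0.06 ± 0.25 without replicate 2 and -0.19 ± 0.30 with it. The checkpoint kinase lok had 402, 96.6 and 337 CPM in the combination and 397, 379 and 363 CPM in TiO2. The same held for the cell cycle: 34 of 34 genes were lower with all libraries, with a median of -0.45 and combination replicate 2 the lowest in each, and 16 higher and 18 lower without combination replicate 2, with a median of 0.00. The cyclin CycA had 1240, 288 and 1031 CPM in the combination and 1213, 1204 and 1274 CPM in TiO2. Both lists hold many genes that the ovary expresses, and combination replicate 2 also had the lowest summed ovarian germline genes, with 4273 CPM against 11060 and 8751 CPM in the other combination libraries and 10520 to 10600 CPM in TiO2; the part of this in the lists was not tested.

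Cell death genes were likewise at 0 of 18 in both directions at an unadjusted p under 0.05, with medians of 0.25 and 0.05. The death inducer hid had 21.9, 28.3 and 25.8 CPM in the combination and 22.6, 16.8 and 23.1 CPM in TiO2. The other inducer rpr varied within both groups, with 1.27, 12.6 and 3.69 CPM in the combination and 3.37, 0.338 and 0.335 CPM in TiO2.

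Among the genes that handle metals and oxidants, the metallothionein MtnA had 324, 301 and 322 CPM in the combination and 103, 159 and 227 CPM in TiO2. The groups did not overlap, the combination libraries were close together, and the log2 fold change was 0.96 ± 0.39 (0.99 ± 0.44 without combination replicate 2; unadjusted p of 0.0485 in edgeR). MtnA was the only one of 12 tested genes of the metallothionein and copper list at an unadjusted p under 0.05 without that library, and without TiO2 replicate 1 as well there were 0, with 9 of 12 genes lower and a median of -0.06. In MtnF combination replicate 2 alone was high, with 0.243, 10.5 and 0.240 CPM in the combination and 0.0821, 0.277 and 0.223 CPM in TiO2. Of 20 antioxidant enzymes, 3 were higher and 17 lower without combination replicate 2, with a median of -0.06 and 0 at an unadjusted p under 0.05; without TiO2 replicate 1 as well, 3 were lower at that p. The log2 fold change without combination replicate 2 was -0.06 ± 0.21 for the superoxide dismutase Sod1 (0.14 with it) and -0.04 ± 0.22 for the catalase Cat (0.20).

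Enzymes that detoxify foreign compounds had few low p-values once combination replicate 2 was left out. Of 78 cytochrome P450 genes 2 were higher and 0 lower at an unadjusted p under 0.05 without it, against 5 and 0 with it, and the median was 0.05 against 0.40; without TiO2 replicate 1 as well, 1 was higher. Cyp28d1 had 97.3, 53.1 and 111 CPM in the combination and 66.0, 54.2 and 50.8 CPM in TiO2, with replicate 2 within the TiO2 range. Cyp309a2 had 21.1, 15.4 and 19.5 CPM in the combination and 10.4, 11.1 and 14.6 CPM in TiO2, without overlap; its log2 fold change was 0.75 without replicate 2 and 0.64 with it. Without that library 0 of 35 glutathione S-transferases were at that p in either direction, with a median of 0.00, and 1 of 32 UDP-glycosyltransferases, Ugt302E1, was higher at that p.

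The 20 heat shock genes tested had a median of 0.43 (log2 fold change) without combination replicate 2 and of 0.62 with all libraries, with 2 higher and 0 lower at an unadjusted p under 0.05, or 1 higher without TiO2 replicate 1 as well. The noncoding heat shock RNA lncRNA:Hsromega had 81.7, 157 and 95.5 CPM in the combination and 54.2, 54.0 and 66.1 CPM in TiO2, without overlap, and its log2 fold change was 0.61 ± 0.24 without replicate 2 and 0.94 ± 0.28 with it. The small heat shock gene Hsp67Bc had 8.38, 3.37 and 2.37 CPM in the combination and 2.68, 1.78 and 2.57 CPM in TiO2, and its groups overlapped. The summed level of the list was 12300, 10520 and 12100 CPM in the combination and 13250, 12660 and 12930 CPM in TiO2, so that the sum lay lower where the median gene lay higher.

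In lipid metabolism, the lipase gene Lip4 had 48.5, 68.5 and 61.0 CPM in the combination and 35.8, 27.5 and 24.2 CPM in TiO2. Lpin, the phosphatidate phosphatase of fat synthesis, had 191, 208 and 187 CPM in the combination and 143, 159 and 142 CPM in TiO2. The groups did not overlap in either, and the log2 fold changes without combination replicate 2 were 0.91 for Lip4 (1.03 with it) and 0.35 for Lpin (0.40); Lpin shares exon sequence with kermit on its own strand. These were the 2 of 21 tested genes of the fat body list at an unadjusted p under 0.05 without that library, and 1 gene was at that p without TiO2 replicate 1 as well. Among 14 hemocyte and melanization genes, the prophenoloxidases PPO1 and PPO2 were higher and Sp7 was lower at that p, and PPO1 had 11.2, 3.46 and 8.24 CPM in the combination and 2.68, 5.63 and 5.70 CPM in TiO2. Amnionless and Cubn2, nephrocyte receptor genes for proteins of the hemolymph, were the 2 of 11 nephrocyte genes lower at that p. In the same fit, 8 of the 11 had a negative log2 fold change. Cubn2 had 1.38, 3.58 and 1.44 CPM in the combination and 3.20, 3.35 and 3.02 CPM in TiO2. Amnionless lay under 0.6 CPM in all 6 libraries, with 1 to 18 counts, and its groups did not overlap. Its log2 fold change was -3.21 ± 0.56 without combination replicate 2 and -1.62 ± 0.72 with it.

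A group of lists lay high in the combination mainly through replicate 2, the library with male transcripts. Sarcomere genes had a median log2 fold change of 1.10 with it and 0.11 without it, and in 27 of 27 it was the highest combination library. Neuronal genes had 1.15 and 0.23, photoreceptor genes 1.00 and 0.27, cuticle proteins of the Cpr family 1.48 and 0.31, antimicrobial peptides 0.98 and 0.18, and nuclear respiratory chain genes 0.51 and 0.04. Without that library, 1 of the 32 Cpr genes and none of the genes of the other 5 lists were at an unadjusted p under 0.05, where with all libraries there were 7 of 35 antimicrobial genes, 7 of 20 photoreceptor genes and 5 of 18 neuronal genes. The Cpr median also moved with TiO2 replicate 1. Without that replicate it was 2.22, and 0.85 without combination replicate 2 as well, with 26 genes higher and 6 lower. With both left out, the medians of the other 5 lists lay between 0.02 and 0.29. The cecropin gene CecC had 1.84, 24.9 and 0.599 CPM in the combination and 0.328, 0.523 and 0.410 CPM in TiO2. The synaptic vesicle gene nSyb had 50.6, 204 and 72.2 CPM in the combination and 49.2, 54.5 and 44.9 CPM in TiO2, and the arrestin of the eye, Arr1, had 108, 269 and 129 CPM in the combination and 102, 87.0 and 102 CPM in TiO2. BomS6, an immune-induced peptide, kept its groups apart without combination replicate 2, with 29.6, 72.4 and 39.0 CPM in the combination and 20.4, 13.8 and 15.5 CPM in TiO2. The 13 protein genes of the mitochondrial genome were higher in 13 of 13 cases in both fits, with medians of 0.50 and 0.22. In all 13, combination replicate 2 was the highest combination library. Their sum was 30130, 52800 and 39740 CPM in the combination and 31560, 35460 and 29980 CPM in TiO2, so that combination replicate 1 lay within the TiO2 range. Without combination replicate 2 and TiO2 replicate 1, 12 were higher and 1 lower. The gene mt:ND4L, which overlaps mt:ND4, had 51.5, 61.6 and 60.1 CPM in the combination and 22.6, 10.5 and 15.1 CPM in TiO2. It was the only one at an unadjusted p under 0.05 without combination replicate 2, against 3 without TiO2 replicate 1 as well.

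**Figure D4:**
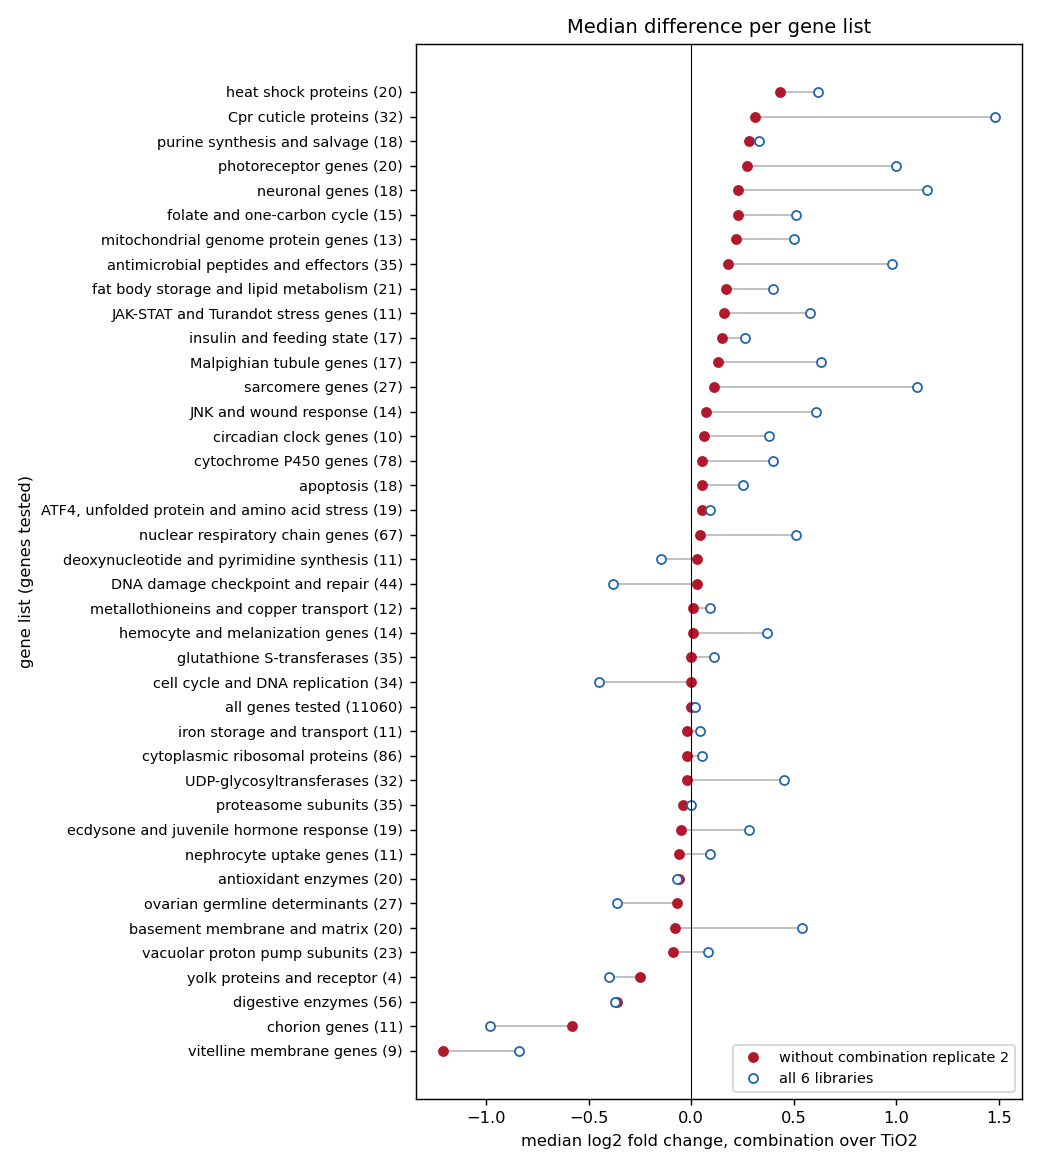
Median log2 fold change of the combination over TiO2 for each gene list, with the number of genes tested in brackets, with all 6 libraries (open) and without combination replicate 2 (filled); no test is attached to these medians. The medians of sarcomere, neuronal, photoreceptor and Cpr genes lie between 1.00 and 1.48 with all libraries and between 0.11 and 0.31 without that library, whereas those of purine genes (0.33 and 0.28) and digestive enzymes (-0.37 and -0.36) hardly move.

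Egg shell genes averaged lower in the combination, and the summed vitelline membrane genes were lower still in TiO2 replicate 1. They had 2626, 2242 and 1109 CPM in the combination and 768, 5227 and 4800 CPM in TiO2. The vitelline membrane gene Vm26Aa had 982, 840 and 279 CPM in the combination and 112, 2230 and 2270 CPM in TiO2. All 9 vitelline membrane genes had a negative log2 fold change, with a median of -0.84, or -1.21 once combination replicate 2 was left out, and 0 were at an unadjusted p under 0.05. Without TiO2 replicate 1, which also had the lowest summed ovary and yolk markers, and without combination replicate 2, the median was -1.76 and 7 of 9 were lower at that p. Chorion genes had medians of -0.98 and -0.58, and the yolk proteins with their receptor -0.40 and -0.25. Summed chorion genes were lowest in combination replicate 2. They had 6340, 109 and 6000 CPM in the combination and 2572, 8253 and 12520 CPM in TiO2. The ovarian germline determinants had a median of -0.36 with all libraries, with 24 of 27 genes lower. Without combination replicate 2 they differed little in size, with a median of -0.07, though 22 of 27 were lower.

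The same cisplatin difference can be taken without TiO2, as cisplatin against control, from libraries that the comparison above does not share. The difference of these differences passed an adjusted p of 0.05 in 0 genes (0%) in edgeR with all libraries, with a smallest adjusted p of 0.129, and in 0 genes without combination replicate 2. With all libraries it passed in 1611 genes in DESeq2. At an unadjusted p under 0.05 it was positive in 2951 genes (26.7%) and negative in 551 (4.98%), and without combination replicate 2 positive in 1636 (14.8%) and negative in 270 (2.44%). Nmdmc had 60.8, 68.2 and 47.1 CPM in cisplatin and 97.3, 71.1 and 71.3 CPM in control, so that all cisplatin libraries lay below all control libraries, where all combination libraries lay above all TiO2 libraries. The log2 fold change of Nmdmc was 1.19 with TiO2 and -0.45 without it, a difference of 1.63 ± 0.27. CG7763 differed by 1.85 with TiO2 and by -1.46 without it, Mp by 1.48 and -1.20, and CG16758 by 1.02 and -0.34. In the opposite direction, tut differed by -1.19 with TiO2 and by 0.91 without it, and fit by -1.69 and 1.20.

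By contrast, the digestive genes were negative on both sides for CG6295 (-0.54 with TiO2 and -0.73 without) and Jon65Aiii (-0.73 and -0.33), and the list of 56 had medians of -0.37 and -0.60. LysD was also negative on both sides (-1.29 and -0.99). Jon65Aii was not, at -0.46 with TiO2 (-2.42 without combination replicate 2) and 0.12 without TiO2. The purine list had medians of 0.33 with TiO2 (0.28 without combination replicate 2) and -0.07 without it, and the folate list 0.51 (0.23) and -0.20. Single libraries moved some of these gene values: with TiO2, fit was at -0.97 and Jon65Aiii at -0.39 without TiO2 replicate 2, CG6295 at -0.33 without combination replicate 1, and Mp at 0.93 and Jon65Aiii at -1.20 without combination replicate 2. Across all 11060 genes the 2 differences correlated at -0.60, and at -0.30 without combination replicate 2; this describes genes, which are not independent replicates and share depth and tissue composition within a library. Sarcomere genes had medians of 1.10 with TiO2 (0.11 without combination replicate 2) and -1.76 without it. Summed muscle markers were 2235 to 5843 CPM in cisplatin and 4030 to 27120 CPM in control, so that the spread of muscle RNA among control libraries, like that in the combination, moves with this contrast; its part in the result was not tested.

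**Figure D5:**
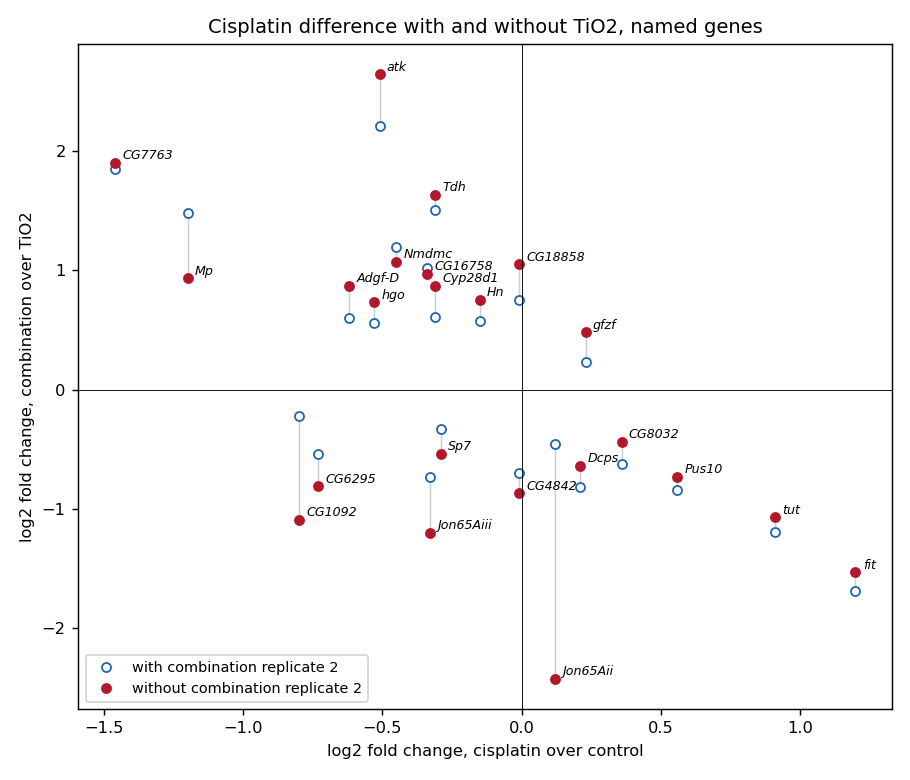
Log2 fold change of the combination over TiO2 (vertical axis) and of cisplatin over control (horizontal axis) for 23 of the 26 genes named by their p-values or by DESeq2, with combination replicate 2 (open) and without it (filled); CatB, LysD and CG42764 are not drawn. Nmdmc, CG16758, CG7763 and Mp are above 0 on the vertical axis and below 0 on the horizontal one, tut and fit the reverse, and CG6295 and Jon65Aiii are below 0 on both. Jon65Aii is below 0 on the vertical axis and above 0 on the horizontal one.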

How the data were processed

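RNA-seq of whole female flies was compared between 3 combination and 3 TiO2 libraries; groups were taken from the sample labels. Per the labels' protocols, Trizol was used for extraction and an Illumina stranded ligation kit for the mRNA libraries. The authors deposited raw counts per gene (17610 genes, 12 libraries). Per the submitters' processing notes, FastQC, Trimmomatic, SAMtools, HTSeq and BWA were used; versions, genome build and strand setting are not given in the sources used here. Of the genes, 17589 have the coordinates of Ensembl assembly BDGP6.54, which supplied symbols and exon overlaps. Several named genes, among them Adgf-D, Gart, Shmt, Cyp28d1, CG18858 and Pus10, overlap exons of another gene on the opposite strand. If the counting ignored strand, their counts may hold reads of that gene.

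Counts were tested with edgeR 4.0.16 (R 4.3.3): filterByExpr on the 4 groups (11060 genes), TMM scaling, and a quasi-likelihood fit of 4 group means to all 12 libraries, which then share 1 estimate of the spread, or to 11 without combination replicate 2. Tests were two-sided, with Benjamini-Hochberg adjustment over all genes and a threshold of 0.05. The standard error is the log2 fold change divided by the root of F. Gene CPM use TMM-scaled totals of the genes kept, and summed lists use all counts. DESeq2 1.42.0, voom sample weights (limma 3.58.1), other scalings and filters, a principal component covariate, a replicate block and left-out libraries were alternatives. The procedure was tested on simulated data in which all groups had the same spread and no library stood apart. That simulation does not cover a library like combination replicate 2 or groups of unequal spread.

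The genes, gene lists (39 lists, 1091 genes) and tests were chosen with earlier results of these data known. Lists hold only symbols that matched a deposited gene, and unmatched symbols were left out. Genes were named if past the adjusted threshold in edgeR or DESeq2, if among the smallest p-values at a mean of at least 5 CPM (12 higher and 8 lower without combination replicate 2, 5 in each direction with it), or if among the 4 smallest p-values of a list; the other list members were named after their values were seen. The authors' deposited comparison tables were not used. For 1 gene of the folate list, values are not reported here.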

Additional observations from a re-analysis of the deposited data

Results flagged for a closer look

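Of the 26 genes named by their p-values or by DESeq2, 5 were such that every combination library lay on one side of every TiO2 library while every cisplatin library lay on the other side of every control library. Over all 11060 genes tested this held in 207 (1.87%), which is 28.5% of the 726 genes whose combination and TiO2 ranges did not overlap. The 26 genes were chosen by the combination against TiO2, and across all genes this difference correlated at -0.60 with that of cisplatin against control. The difference between both cisplatin differences, on the log2 scale, was 1.63 ± 0.27 (standard error) for Nmdmc and 1.52 without combination replicate 2. It was 3.30 for CG7763 (3.35 without that library), 2.68 for Mp (2.13) and 5.47 for CG42764 (3.39), and for tut, in the opposite direction, -2.10 (-1.98). None passed edgeR's test of that difference, with a Benjamini-Hochberg adjusted p of 0.129 for each, or 0.289 without combination replicate 2. In DESeq2 with all libraries the adjusted p was 0.000139 for Nmdmc, 0.000524 for CG7763, 0.00194 for Mp, 0.0103 for CG42764 and 0.00817 for tut. CG42764 lay under 1 CPM in every library other than combination replicate 2.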

How the results depend on the processing

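No gene passed the adjusted threshold in edgeR under RLE scaling, without a filter on low counts, with genes of at least 5 CPM only, with the 2 groups fitted alone, without the genes of the male lists or without any 1 of the 6 libraries, in the fits with and without combination replicate 2 (0 to 0 genes without 1 library). With all libraries, 3 genes passed in DESeq2, 348 with voom sample weights (244 higher, 104 lower) and 3604 with the first principal component as a covariate (1500 higher, 2104 lower); without combination replicate 2 these counts were 1, 0 and 0. The cause of these differences between tools was not tested. At an unadjusted p under 0.05 the 750 genes of the fit with all libraries became 5119 with the covariate, 3664 with voom weights, 1610 without a filter, 338 at 5 CPM or more and 306 with the 2 groups alone, and lay between 140 (without combination replicate 2) and 2529 (without combination replicate 1) without 1 library. They were 477, 393 and 359 without TiO2 replicates 1, 2 and 3. Without combination replicate 2 the 140 genes became 330 with the covariate, 228 with voom weights, 220 without a filter, 218 with the 2 groups alone and 75 at 5 CPM or more, and lay between 109 (without TiO2 replicate 3) and 215 (without TiO2 replicate 1) without 1 further library. For the difference of the cisplatin differences, 0 genes became 1611 in DESeq2, 7963 with voom weights, 7009 with the covariate, 2840 without combination replicate 1 and 1975 without control replicate 3 (range 0 to 2840 without 1 library).

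Without a filter, the median log2 fold change of all genes with all libraries moved to 0.27. The replicate numbers did not pair the libraries: same-numbered combination and TiO2 libraries deviated from their group means with correlations of -0.322, 0.130 and -0.101. With a replicate block the counts at an unadjusted p under 0.05 were 316 and, without combination replicate 2, 105, and 0 genes passed the adjusted threshold. Of 78 values of named genes, each under 13 to 15 alternatives, 10 alternatives turned a direction. With all libraries these were Cat at -0.05 with voom weights and -0.04 without combination replicate 2 (range -0.04 to 0.33 without 1 library), Sod1 at -0.06 (-0.06 to 0.31) and p53 at 0.06 (-0.46 to 0.06) without that library, and Jon65Aii at 0.09 without combination replicate 1 (-2.42 to 0.09). Without combination replicate 2, they were Cat to 0.10 with the replicate block and to 0.10 without TiO2 replicate 2 (range -0.17 to 0.10 without 1 library), Gnmt to -0.05 (-0.05 to 2.40), Sod1 to 0.13 (-0.28 to 0.13) and p53 to -0.14 (-0.14 to 0.24), these last 3 without combination replicate 1.

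The median SD of log2 CPM was 0.62 in the combination, with combination replicate 2 included, and 0.18 in TiO2 (n = 3 each). It was 0.13 in cisplatin and 0.50 in control (n = 3 each). The shared estimate of the spread draws on all 4 groups. The spread of groups not compared therefore enters these tests, other than the fit of the 2 groups alone. The smallest difference that these libraries could show was not computed.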

Other observations

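Further gene lists held few or no genes at an unadjusted p under 0.05 without combination replicate 2. There were 0 in either direction among 17 genes of insulin and feeding state, 11 of the JAK-STAT pathway, 14 of the JNK and wound response, 17 of the Malpighian tubule, 11 of iron transport, 86 cytoplasmic ribosomal proteins, 23 subunits of the vacuolar proton pump, 10 clock genes and 19 genes of the hormone response. Their median log2 fold changes lay between -0.09 and 0.16. With all libraries the medians were 0.63 for the Malpighian tubule, 0.61 for JNK, 0.58 for JAK-STAT, 0.38 for the clock, 0.28 for the hormone response and 0.26 for insulin and feeding, and between 0.04 and 0.08 for the other 3 lists. Higher at an unadjusted p under 0.05 were then 2 genes of the tubule and 2 of the ribosome, and 1 each of JNK, the clock, the hormone response and insulin, with 0 lower. Without that library, of 20 genes of basement membrane and matrix 1 (Mp) was higher, and of 35 proteasome subunits 1 (Prosalpha1R) was lower.

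Ilp6, an insulin-like peptide of the fat body, was picked after its values were seen. It had 28.0, 27.0 and 27.1 CPM in the combination and 9.99, 11.5 and 24.5 CPM in TiO2, without overlap, and the 3 combination libraries lay close together. Its log2 fold change was 0.84 ± 0.44 (standard error) without combination replicate 2 and 0.84 ± 0.39 with it, and became 1.36 and 1.35 in these fits when TiO2 replicate 3 was left out; it did not pass the adjusted threshold in edgeR.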
